A study of Mus musculus with 6 samples.

Results

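The antioxidant, thioredoxin and NRF2 genes were followed in KPC cells, which come from a mouse model of pancreatic ductal adenocarcinoma, with and without knockdown of Brca2. Members were the genes of the count table whose symbol was on a list of pathway genes. The list covers NRF2 and its regulators, its classical target enzymes, the glutathione and thioredoxin systems, peroxiredoxins, superoxide dismutases, catalase, glutaredoxins, methionine sulfoxide reductases and ferritin. Of the 44 genes listed, 40 were among the 10616 genes of the count table, 39 received an adjusted p-value and 38 had a mean normalized count above 5. Bach1, Gpx2, Sod2 and Glrx3 were not analysed here, and Nqo1 and Glrx2 were the members at or under a mean of 5.

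Both groups were the same KPC line carrying a lentiviral short hairpin RNA, directed at Brca2 in shBrca2 (3 libraries) or at no mouse gene in shControl (3 libraries), with puromycin selection in both. The comparison asks which transcripts of the cancer cells themselves differ between knockdown and control cells. Each group carried its own hairpin, so effects of Brca2 loss cannot be told apart from other effects of the hairpin or of selection. Cells were cultured without stroma, living cells were sorted by exclusion of propidium iodide, and polyadenylated RNA was sequenced from its 3′ end. The labels do not say whether the libraries of a group came from separate cultures, so the p-values measure the spread between these libraries, which may be technical. The use of a single line limits the model to that line.

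NRF2, encoded by Nfe2l2, is a transcription factor that KEAP1 holds in the cytoplasm and marks for degradation. Oxidants and electrophiles modify KEAP1, and NRF2 then pairs with small MAF proteins at antioxidant response elements near genes for glutathione synthesis, quinone reduction, heme breakdown and thioredoxin reduction. Thioredoxin and glutathione return oxidized proteins and peroxidases to their reduced form, and superoxide dismutase and catalase remove superoxide and hydrogen peroxide. Pancreatic tumor cells are known to depend on this program for redox balance.

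The libraries held 1519340 to 2358350 counts in shBrca2 and 2043470 to 2452467 in shControl, with 10532 to 10593 genes detected. Brca2 itself was counted 10, 11 and 14 times in shBrca2 and 33, 52 and 33 times in shControl. It was lower in shBrca2 by the test used throughout (log2 fold change -1.61 ± 0.44 SE, DESeq2 likelihood ratio test, adjusted p = 0.0290). At these low counts the call was lost without shBrca2 replicate 2 (adjusted p = 0.152), shBrca2 replicate 3 (0.233) or shControl replicate 2 (0.371). Of 9 epithelial markers, 8 were in the table, and their summed normalized count was 16783 to 17612 in shBrca2 and 17674 to 18845 in shControl, most of it from the keratins Krt18, Krt19 and Krt8. The less abundant ductal markers Krt7 (log2 fold change 1.21 ± 0.20 SE, DESeq2 adjusted p = 2.07e-06) and Sox9 (1.203 ± 0.34 SE, DESeq2 adjusted p = 0.0391) were called higher in shBrca2, and their part in the results below was not tested. Epcam, also an epithelial marker, was hardly counted, with raw counts of 3, 4 and 9 in shBrca2 and 9, 10 and 6 in shControl. Of 9 fibroblast markers, only Col1a2 and Thy1 were in the table, with sums of 17.7 to 22.7 in shBrca2 and 13.8 to 42.4 in shControl. Cd68 was the 1 of 8 immune markers in the table, at 12.2 to 20.4 in shBrca2 and 11.1 to 16.8 in shControl, and none of the 5 endothelial markers was in it.

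Because NRF2 and small MAF proteins bind the antioxidant response element, the member promoters were searched for its core, written TGACNNNGC, on both strands. RefSeq promoter windows, from 250 bases before to 50 after each transcription start on the mouse build GRCm38.p6, were matched for 35 of the 40 members. Hmox1, Gclc, Gsr, Prdx6 and Msra had no matched window. The core was found for 8 of these 35 members (22.9%), while 17.3% of all genes of the table with a window held it. Counted by window, 8 of 53 member windows held it (15.1%), against 12.4% of all RefSeq windows. All 8 matches are shown, and they include Sod1, the member with the clearest difference below, as well as textbook NRF2 targets. Nqo1, often used as an NRF2 reporter, had a window without the core, and Txnrd1 held it in 1 of 3 windows. Of the other members named below for an unadjusted p under 0.05, Gclm held the core, while Txnip, Prdx4, Glrx and Sqstm1 had windows without it. Any bearing of the core on the differences below was not tested. Capitals mark the core, each sequence is read 5′ to 3′ on the strand that carries it, and such a match describes letters only, not a bound site.
Nfe2l2: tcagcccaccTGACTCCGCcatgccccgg
Mafg: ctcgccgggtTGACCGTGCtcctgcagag
Mafk: tccccagtacTGACACCGCttccgggatc
Gclm: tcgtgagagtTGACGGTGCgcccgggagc
Txnrd1: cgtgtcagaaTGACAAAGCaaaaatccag
Prdx1: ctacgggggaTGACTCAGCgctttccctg
Srxn1: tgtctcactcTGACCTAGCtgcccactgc
Sod1: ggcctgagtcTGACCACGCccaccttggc
On GRCm38.p6 these stretches lie at chr2:75704885-75704913 (Nfe2l2, minus strand), chr11:120633751-120633779 (Mafg, plus strand), chr5:139791513-139791541 (Mafk, minus), chr3:122245413-122245441 (Gclm, minus), chr10:82859104-82859132 (Txnrd1, minus), chr4:116685456-116685484 (Prdx1, minus), chr2:152105542-152105570 (Srxn1, minus) and chr16:90220696-90220724 (Sod1, minus). The Srxn1 match lies after the transcription start and the others lie before it.

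Among the antioxidant genes, Sod1 rose in shBrca2 by 1.5-fold and no other member passed the test. A gene was called when its p-value, adjusted over all genes by the Benjamini-Hochberg method, was under 0.1, its log2 fold change was beyond 0.5 in either direction and its mean normalized count was above 5. By these criteria 1 of 39 members was called, and 1.27% of all 9997 genes tested were. The called member was higher in shBrca2, as were 0.77% of all genes, and no member was called lower. Another 6 members, Txnip, Prdx4, Glrx, Sqstm1, Gclm and Gclc, had an unadjusted p under 0.05 and adjusted p-values of 0.188 to 0.555. With Sod1 these made 7 of 39 members, against 8.66% of all genes. All 7 had higher mean counts in shBrca2, a direction and threshold met by 4.55% of all genes.

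Sod1, at chr16:90220762-90226333 on GRCm38.p6, encodes the cytosolic copper and zinc superoxide dismutase that converts superoxide to hydrogen peroxide. Its normalized counts, which are counts divided by the size factor of each library, were 3091, 3336 and 3247 in the shBrca2 libraries. In the shControl libraries they were 2187, 2212 and 2069. The groups did not overlap, and every shBrca2 library lay well above the highest shControl library. The means were 3224 ± 124 and 2156 ± 76.7 (SD, n = 3 each). The log2 fold change was 0.58 ± 0.13 SE, with a 95% interval of 0.33 to 0.83 and an adjusted p of 0.00151 by the DESeq2 likelihood ratio test. Sod1 took 0.149%, 0.161% and 0.158% of all counts in shBrca2 and 0.103%, 0.108% and 0.102% in shControl, so the difference also stood in shares that use no size factor.

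The change of Sod1 was modest in size and precisely measured. Among the 77 genes called higher, it ranked 2 by mean count but 72 by fold change, and 27 of all 127 called genes by p-value. Its spread within the groups was at percentile 0.757 of genes with a mean above 5, among the smallest. Its mean count was at percentile 99.1 of all genes, and the spread was not compared with that of genes of like abundance. Leaving out each library in turn gave log2 fold changes of 0.55 to 0.61 and DESeq2 adjusted p-values of 0.00138 to 0.0403, so the call held in every such fit. With edgeR's quasi-likelihood test the adjusted p was 0.0512, which also passed. The core in the Sod1 window printed above lies on the strand opposite to the gene. Its end farther from the transcription start is at position -56. Ccs, the chaperone that loads copper onto SOD1, was listed with the wider redox genes and had 123, 119 and 99.2 normalized counts in shBrca2 and 106, 90.6 and 85.0 in shControl. Those ranges overlapped, and the log2 fold change of Ccs was 0.27 ± 0.23 SE (DESeq2 adjusted p = 0.863). Catalase, which breaks down the hydrogen peroxide made by superoxide dismutases, differed by 0.12 ± 0.19 SE on the log2 scale (DESeq2 adjusted p = 0.943).

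**Figure D1:**
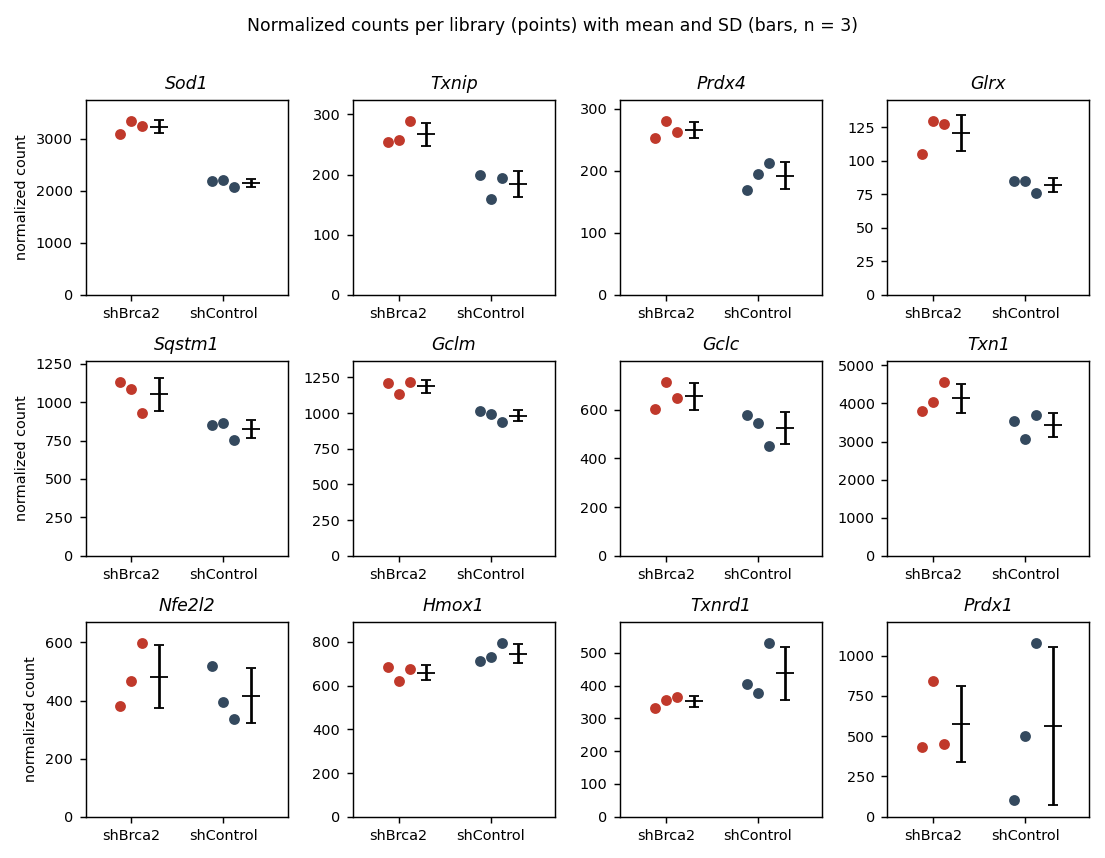
Normalized counts (vertical axes, each starting at 0) of 12 antioxidant genes in the 3 shBrca2 and 3 shControl libraries, with points for libraries and the mean and SD of each group. The Sod1 points are separated by a wide gap, at 3091 to 3336 against 2069 to 2212, whereas those of Prdx1 range from 105 to 1078 within shControl alone.

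The transcripts of NRF2 and of its inhibitor did not show a detectable difference between the groups. Nfe2l2 had 381, 468 and 598 normalized counts in shBrca2 and 519, 396 and 336 in shControl. The libraries of the groups were interleaved. The log2 fold change was 0.21 ± 0.21 SE, and its 95% interval of -0.19 to 0.62 left room for a change in either direction (DESeq2 adjusted p = 0.884). Keap1, the adaptor that targets NRF2 for degradation, had 192, 220 and 208 normalized counts in shBrca2 and 208, 210 and 194 in shControl. The Keap1 groups overlapped almost fully, and the log2 fold change was 0.02 ± 0.18 SE (95% interval -0.33 to 0.38). Mafg and Mafk, small MAF partners of NRF2, differed by -0.0020 ± 0.19 SE and 0.20 ± 0.47 SE on the log2 scale. Nfe2l1, a related factor best known for proteasome genes, had 221, 184 and 161 normalized counts in shBrca2 and 203, 256 and 245 in shControl (log2 fold change -0.32 ± 0.20 SE, DESeq2 adjusted p = 0.712). RNA levels say nothing of NRF2 protein, which is controlled mainly by degradation.

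Sqstm1 encodes p62, an autophagy receptor that binds KEAP1 and is also an NRF2 target. Its normalized counts were 1131, 1088 and 932 in shBrca2 and 854, 865 and 755 in shControl. All shBrca2 libraries were above all shControl libraries, but the gap was small. The log2 fold change was 0.35 ± 0.15 SE and did not pass (DESeq2 adjusted p = 0.410).

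None of the quinone and heme enzymes passed the test. The median log2 fold change of the 3 with a mean above 5 was -0.18. Nqo1, the quinone reductase often used as an NRF2 reporter, had only 3, 4 and 0 raw counts in shBrca2 and 4, 15 and 5 in shControl. At this depth its log2 fold change of -1.53 ± 1.02 SE had an interval from -3.54 to 0.47, and no difference was detectable. Hmox1, the inducible heme oxygenase, had 685, 619 and 676 normalized counts in shBrca2 and 713, 730 and 795 in shControl. Every shBrca2 library was below every shControl library, by a small margin (log2 fold change -0.18 ± 0.14 SE, DESeq2 adjusted p = 0.852). Hmox2, the constitutive heme oxygenase, differed by -0.20 ± 0.25 SE on the log2 scale, and Blvrb, a biliverdin reductase, by 0.06 ± 0.27 SE.

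All 4 genes of glutathione synthesis and reduction had log2 fold changes above 0, with a median of 0.22, and none passed the test. Of all genes with a mean above 5, 4925 of 9906 lay above 0. Gclc and Gclm encode the catalytic and modifier subunits of glutamate-cysteine ligase, the rate-limiting enzyme of glutathione synthesis. Gclc had 603, 713 and 647 normalized counts in shBrca2 and 576, 545 and 449 in shControl. Gclm had 1214, 1137 and 1217 in shBrca2 and 1012, 994 and 936 in shControl. For both subunits the groups did not overlap, with log2 fold changes of 0.32 ± 0.16 SE for Gclc and 0.28 ± 0.13 SE for Gclm. The adjusted p-values by DESeq2 were 0.555 and 0.533. Gss, which adds glycine in the last step, and Gsr, which reduces oxidized glutathione, differed by 0.17 ± 0.19 SE and 0.14 ± 0.18 SE on the log2 scale.

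The glutathione peroxidases differed in sign and none passed. Gpx1, the abundant cytosolic enzyme, had 1513, 1316 and 1798 normalized counts in shBrca2 and 1406, 1248 and 1485 in shControl, which overlapped (log2 fold change 0.16 ± 0.16 SE). Gpx4, which reduces lipid hydroperoxides and restrains ferroptosis, had 208, 205 and 253 in shBrca2 and 361, 215 and 195 in shControl. The log2 fold change of Gpx4 was -0.20 ± 0.23 SE (DESeq2 adjusted p = 0.913). Its lower mean in shBrca2 rested on shControl replicate 1, and its log2 fold change ranged from -0.37 to 0.12 when single libraries were left out. Gpx8, a peroxidase of the endoplasmic reticulum, differed by -0.36 ± 0.44 SE.

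Within the thioredoxin system the members pointed in different directions. Txn1, cytosolic thioredoxin, had 3798, 4043 and 4562 normalized counts in shBrca2 and 3546, 3073 and 3695 in shControl. The groups did not overlap, although the lowest shBrca2 library was close to the highest shControl library (log2 fold change 0.27 ± 0.14 SE, DESeq2 adjusted p = 0.596). Txnrd1, the cytosolic thioredoxin reductase and an NRF2 target, had 332, 357 and 366 in shBrca2 and 405, 377 and 530 in shControl. Here every shBrca2 library was the lower, with a log2 fold change of -0.31 ± 0.18 SE (DESeq2 adjusted p = 0.664). Without shControl replicate 3, the highest library, it was -0.15. The mitochondrial members Txn2 and Txnrd2 differed by -0.07 ± 0.14 SE and -0.18 ± 0.31 SE on the log2 scale. Txnrd3, a reductase best known from testis, had 92.6, 58.6 and 60.0 normalized counts in shBrca2 and 87.9, 91.4 and 92.9 in shControl, which overlapped. Among members with a mean above 5 it had the lowest estimate, -0.38 ± 0.27 SE on the log2 scale (DESeq2 adjusted p = 0.781).

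Txnip encodes a protein that binds thioredoxin and blocks its activity, and its transcript is known to follow glucose. Its normalized counts were 253, 258 and 289 in shBrca2 and 200, 159 and 194 in shControl. The groups were clearly apart, with means of 267 ± 19.3 and 184 ± 21.9 (SD, n = 3 each). The fold was 1.45, close to that of Sod1, but the log2 fold change of 0.54 ± 0.19 SE did not pass (DESeq2 adjusted p = 0.188). Txnip overlaps Gm15441 in RefSeq, and since the strand setting of the counting was not given, reads of the overlapping genes cannot be told apart. The same applies to Mafg, Hmox2, Gclm, Gss, Gpx8, Txnrd1, Txnrd2, Prdx1, Prdx5, Glrx and Glrx5, each of which overlaps another annotated gene on the other strand or one of unlisted strand. Gsr and Msra also overlap other annotated genes, and the strands of these pairs were not established here.

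All 8 genes of the peroxiredoxin group, which here includes Srxn1 and Sesn1, had log2 fold changes above 0, with a median of 0.17. Of all genes with a mean above 5, 4925 of 9906 lay above 0. None of the 8 genes passed the test. Prdx4, the peroxiredoxin of the endoplasmic reticulum, had 253, 280 and 263 normalized counts in shBrca2 and 169, 195 and 212 in shControl. The groups were apart, and the log2 fold change was 0.47 ± 0.18 SE (DESeq2 adjusted p = 0.308). Prdx3, its mitochondrial relative, had 208, 209 and 230 in shBrca2 and 161, 177 and 185 in shControl, also without overlap (log2 fold change 0.31 ± 0.19 SE, DESeq2 adjusted p = 0.702). Prdx2, a cytosolic member, had 1331, 1553 and 1133 in shBrca2 and 1060, 1201 and 1332 in shControl, which overlapped (log2 fold change 0.16 ± 0.16 SE). Srxn1, the sulfiredoxin that repairs overoxidized peroxiredoxins, differed by 0.18 ± 0.18 SE on the log2 scale, and the sestrin Sesn1, at low counts, by 0.30 ± 0.42 SE. For Prdx5 and Prdx6 the signs of 0.05 ± 0.15 SE and 0.03 ± 0.16 SE changed when single libraries were left out.

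Prdx1, the major cytosolic peroxiredoxin, stood out by its spread within the groups. Its normalized counts were 430, 845 and 452 in shBrca2 and 105, 503 and 1078 in shControl, from raw counts of 316, 894 and 519 and of 104, 600 and 1090. The lowest and the highest library were both shControl, and the spread within groups was at percentile 99.2 of genes with a mean above 5. The log2 fold change of 0.03 ± 0.89 SE had an interval of -1.70 to 1.77, so these libraries set almost no limit on a change of Prdx1, and its sign changed when single libraries were left out. RefSeq names a Prdx1 pseudogene, as it does for Gpx4, Prdx2, Prdx6 and Ftl1. How reads shared with such copies were counted is not given in the sources used here, so these counts are uncertain. Pseudogenes under names unlike that of the parent gene were not searched for in any member.

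Glrx, the cytosolic glutaredoxin that removes glutathione from proteins, had 105, 130 and 127 normalized counts in shBrca2 and 84.9, 84.7 and 76.1 in shControl. The shControl libraries were close together and below all shBrca2 libraries. The fold was 1.48 and the log2 fold change 0.56 ± 0.23 SE, which did not pass (DESeq2 adjusted p = 0.369). Glrx5, a mitochondrial glutaredoxin of iron-sulfur cluster assembly, had 499, 539 and 500 in shBrca2 and 552, 478 and 607 in shControl, with overlap (log2 fold change -0.09 ± 0.16 SE). Glrx2, another mitochondrial glutaredoxin, had raw counts of 4, 6 and 2 against 0, 5 and 6, too few to detect a difference (log2 fold change 0.31 ± 1.09 SE). Methionine sulfoxide reductases repair oxidized methionine in proteins. Msrb1 had 164, 209 and 165 normalized counts in shBrca2 and 201, 195 and 196 in shControl, and the groups overlapped. Msrb1 and Msra differed by -0.14 ± 0.19 SE and -0.08 ± 0.35 SE on the log2 scale.

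Ferritin stores iron and keeps it from generating radicals, and its subunits were the largest single contribution to the counts of the antioxidant genes. Fth1, the heavy chain, had 18232, 22866 and 16233 normalized counts in shBrca2 and 16246, 17121 and 18865 in shControl. Ftl1, the light chain, had 4644, 4441 and 3931 in shBrca2 and 5439, 5611 and 3744 in shControl. The groups overlapped for both chains, with log2 fold changes of 0.13 ± 0.15 SE and -0.19 ± 0.17 SE. All members together took 2.13%, 2.38% and 2.06% of the counts in shBrca2 and 1.92%, 2.004% and 2.10% in shControl. Ferritin alone took 0.983% to 1.32% in shBrca2 and 1.02% to 1.119% in shControl.

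**Figure D2:**
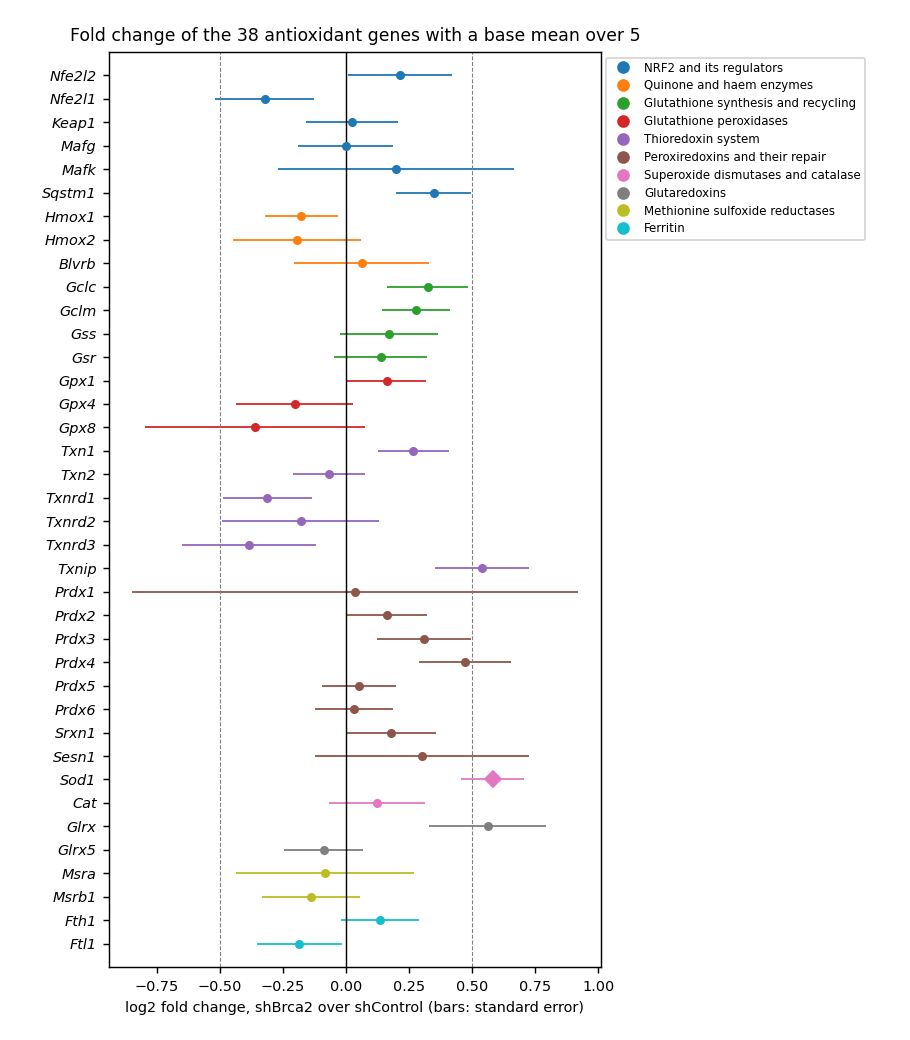
Log2 fold change of shBrca2 over shControl (horizontal axis) for each antioxidant gene with a mean normalized count above 5, colored by role, with bars for the SE and dashed lines at 0.5 in each direction. Sod1, drawn as a diamond, is the called gene, and the estimates run from -0.38 (Txnrd3) to 0.58 (Sod1).

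Of the 38 members with a mean above 5, 24 had a log2 fold change above 0 and 14 below. Among all genes at such a mean, 4925 lay above 0 and 4981 below. The median of the members was 0.09, and the median of all genes was -0.0018. Without shBrca2 replicate 2 the members' median was 0.02, without shControl replicate 2 it was 0.04 and without shBrca2 replicate 1 it was 0.15. The members were measured more precisely than most genes, with a median SE of 0.19 against 0.29.

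The libraries of the groups did not overlap for 11 of 38 members, against 20.7% of all genes with a mean above 5. In 9 of these, Sod1, Txnip, Prdx4, Prdx3, Glrx, Sqstm1, Gclm, Gclc and Txn1, every shBrca2 library was the higher, against 10.2% of all genes. Hmox1 and Txnrd1 were the members in which every shBrca2 library was the lower.

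**Figure D3:**
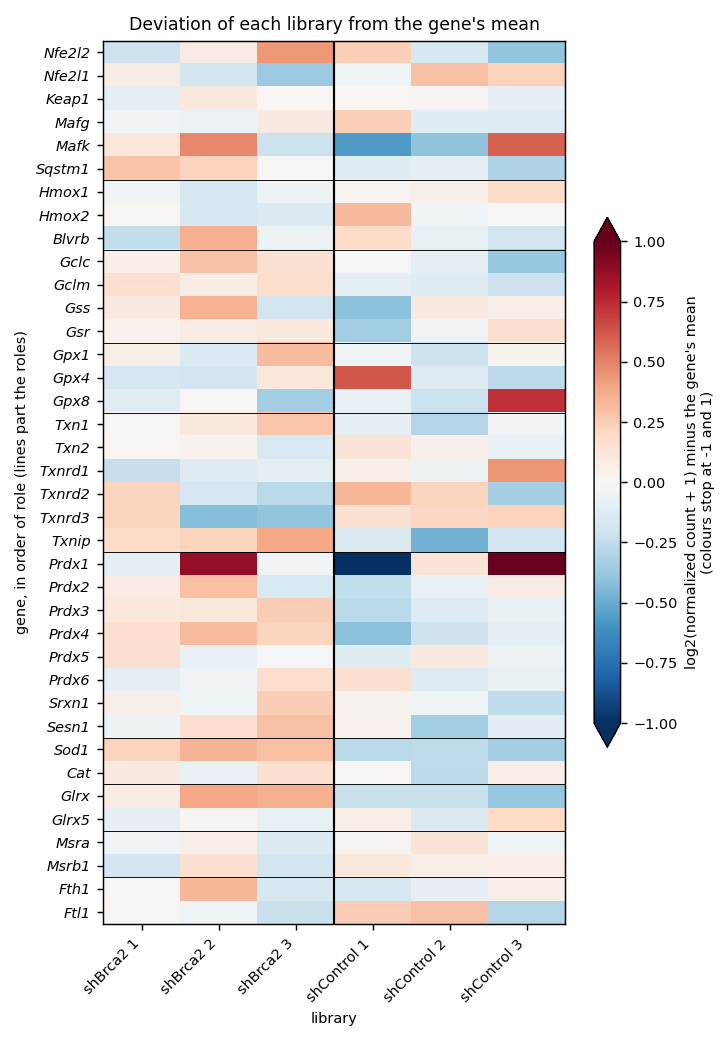
Heat map of log2(normalized count + 1) minus the mean of each gene over all libraries, for 38 antioxidant genes (vertical axis) in 6 libraries (horizontal axis), with colors that stop at 1 in each direction. The Sod1 row divides cleanly by group, and the strongest colors are in the Prdx1 row, within shControl.

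Leaving out single libraries shows how far each one moved the estimates of the genes with the smallest p-values. Their sign could hardly change, since these genes were chosen for small p-values and their groups do not overlap. The log2 fold change of Txnip ranged from 0.44 to 0.60, that of Prdx4 from 0.39 to 0.54 and that of Glrx from 0.51 to 0.65. Sqstm1 ranged from 0.29 to 0.43, Gclc from 0.22 to 0.40 and Gclm from 0.24 to 0.31. For Txnip the DESeq2 adjusted p ranged from 0.185 to 0.781 over these fits.

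**Figure D4:**
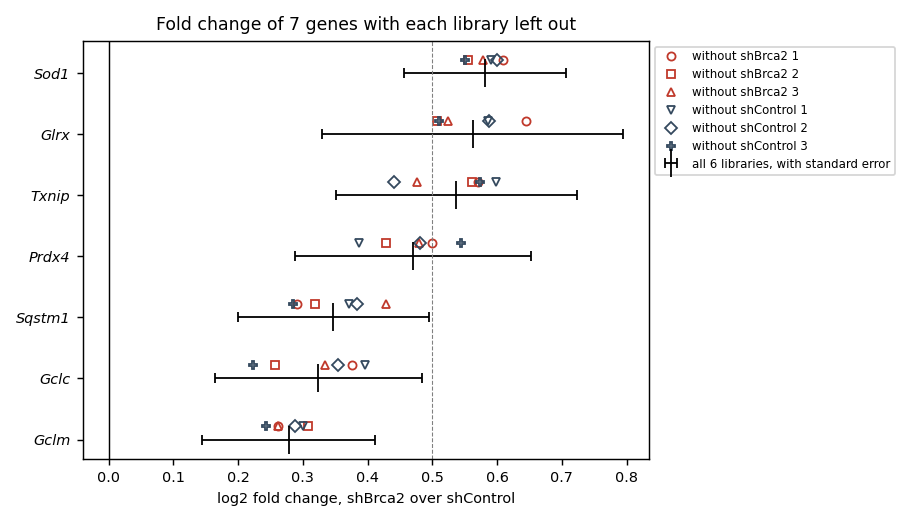
Log2 fold change of shBrca2 over shControl (horizontal axis) for the 7 antioxidant genes with an unadjusted p under 0.05, from all libraries (line with SE bar) and after leaving out each library in turn (symbols). The Sod1 points lie closest together, from 0.55 to 0.61, and those of Txnip reach from 0.44 to 0.60.

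Among the wider redox genes, listed by role around the NRF2 pathway, the share of calls was near that of all genes. Of 122 genes listed, 105 were in the table, 103 were tested and 2 were called, both higher in shBrca2, against 1.27% of all genes called and 0.77% called higher. Akr1c12 and Akr1c13 encode aldo-keto reductases, enzymes that reduce carbonyls and steroids. Akr1c12 had 95.4, 90.8 and 94.0 normalized counts in shBrca2 and 30.3, 42.8 and 54.4 in shControl. Akr1c13 had 151, 136 and 108 in shBrca2 and 47.5, 65.4 and 72.2 in shControl. Both were well apart between the groups. The log2 fold changes were 1.13 ± 0.29 SE (DESeq2 adjusted p = 0.0139) and 1.09 ± 0.26 SE (DESeq2 adjusted p = 0.00622). These neighbors on chromosome 13 are close paralogs, so the division of reads between them is uncertain. The Akr1c12 call was lost without shBrca2 replicate 1 (DESeq2 adjusted p = 0.101), shBrca2 replicate 3 (0.167), shControl replicate 1 (0.117) or shControl replicate 2 (0.154), and that of Akr1c13 without shBrca2 replicate 1 (0.111).

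In all, 18 of the 103 wider genes had an unadjusted p under 0.05, with 14 higher and 4 lower in shBrca2, against 8.66% of all genes in either direction and 4.55% higher. The median log2 fold change of the 103 was 0.08. The glutathione S-transferases, which join glutathione to electrophiles, gave 4 of the higher genes among 19 tested and no lower one. The genes listed under carbonyl and drug detoxification, which include Akr1c12 and Akr1c13, also gave 4 higher among 19, with 1 lower, Park7. In that group the libraries did not overlap for 9 of 19 genes, of which 8 were higher in shBrca2. Of all genes with a mean above 5, 20.7% did not overlap and 10.2% did so with shBrca2 higher. The median log2 fold change of the group was 0.25. Other wider groups showed less, with 0 of 8 genes of the NRF2 complex and its turnover not overlapping. Among genes of iron and heme handling it was 2 of 10, with 1 in each direction. Esd, an esterase that acts in formaldehyde removal with glutathione, had 2114, 1982 and 2215 normalized counts in shBrca2 and 1290, 1516 and 1753 in shControl, a log2 fold change of 0.47 ± 0.15 SE (DESeq2 adjusted p = 0.124). Txndc5, a thioredoxin-like protein of the endoplasmic reticulum, had 181, 162 and 191 in shBrca2 and 107, 118 and 120 in shControl, a log2 fold change of 0.63 ± 0.20 SE (DESeq2 adjusted p = 0.137). Park7, which encodes the redox-sensitive protein DJ-1, was on the other side, with 409, 378 and 359 in shBrca2 and 546, 531 and 511 in shControl, a log2 fold change of -0.47 ± 0.15 SE (DESeq2 adjusted p = 0.129). The groups did not overlap for any of these genes, and none of them passed.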

How the data were processed

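RNA was measured in 3 shBrca2 and 3 shControl libraries of cultured KPC cells by MARS-seq, a 3′-end method. The authors deposited raw counts per gene. The submitters' processing notes name bcl2fastq, cutadapt, STAR 2.4.2a, HTSeq, DESeq2 and the build mm10, and the annotation, strand setting and use of molecular identifiers are not given in the sources used here. The deposited counts were tested over all 10616 genes with DESeq2 1.42.0 (R 4.3.3), by a likelihood ratio test of group against the intercept, following the study's methods. Calls required an adjusted p (Benjamini-Hochberg) under 0.1, a log2 fold change beyond 0.5 in either direction and a mean normalized count above 5. DESeq2's independent filter, at a mean of 4.64, left 9997 genes with an adjusted p. Fold changes are unshrunken, and intervals are 1.96 SE to each side and cover the spread between libraries as modeled. Depths were 1519340 to 2452467 counts.

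Groups came from the sample labels. The members, the wider list and the marker lists were chosen with earlier results of these data known, so they give no independent support. By rule every member was given with its log2 fold change, and values per library were given for Brca2, for members called or at an unadjusted p under 0.05, for the most abundant member of each role, and for the wider genes called or among the next 3 by p. Values of other genes were added after they were seen. Gene symbols were matched to RefSeq on GRCm38.p6, the same assembly as mm10, with synonyms. In simulated counts for all 10616 genes with the sample sizes of this comparison, 56 of 100 genes changed by 1 on the log2 scale and 96 of 100 changed by 2 were called in the right direction, with 16 false calls. The changed genes were drawn only from genes above a minimum mean count, and changes smaller than 1 were not simulated. These shares therefore do not hold for genes at low counts or for changes as small as those of the members. Alternatives were edgeR 4.0.16, other scaling, other count filters and leaving out each library.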

Additional observations from a re-analysis of the deposited data

How the results depend on the processing

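Sod1 was the only member called in every alternative tried. The count of called genes, 127 with all libraries, ranged from 47 to 140 when single libraries were left out, being 81 without shBrca2 replicate 1, 47 without shBrca2 replicate 3 and 55 without shControl replicate 2. Over the same fits the genes called higher ranged from 32 to 98, those called lower from 15 to 45, the wider redox genes called from 0 to 4, and the median log2 fold change of the members from 0.0245 to 0.150. The wider count was 0 without shBrca2 replicate 1 and 4 without shControl replicate 3, which added Esd and Tfrc. Of the wider genes, edgeR called 4, adding Gstt1 and Txndc5, and scaling by total counts called 3, adding Ugdh. The log2 fold change of Mafg changed sign, to 0.0035 with edgeR, 0.00082 with total counts and 0.0033 with a filter at 10 counts. When single libraries were left out, the sign changed for Keap1 (-0.0261 to 0.0686), Mafg (-0.0668 to 0.13), Mafk (-0.0208 to 0.66), Blvrb (-0.13 to 0.18), Gpx4 (-0.37 to 0.12), Gpx8 (-0.55 to 0.00023), Prdx1 (-0.46 to 0.92), Prdx5 (-0.0199 to 0.11), Prdx6 (-0.05125 to 0.12), Glrx2 (-0.26 to 0.96) and Fth1 (-0.0160 to 0.24). The cause of these changes was not tested. Low counts limit Nqo1 and Glrx2. No paired analysis was possible because the labels and columns carry no replicate numbers that pair the groups.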

Other observations

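Several wider redox genes had 1 shControl library apart from the other two, and were not called. Slc40a1, which encodes the iron exporter ferroportin, had 73.6, 40.7 and 55.7 normalized counts in shBrca2 and 40.4, 39.4 and 5.93 in shControl. Tfrc, the transferrin receptor that brings iron into cells, had 178, 125 and 155 in shBrca2 and 45.5, 80.5 and 218 in shControl. Idh1, a cytosolic source of NADPH, had 396, 264 and 344 in shBrca2 and 352, 314 and 112 in shControl. In each of these genes shControl replicate 3 was the lowest or the highest of all libraries. These genes were chosen after their values were seen.

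Genes that supply NADPH for the reduction of glutathione and thioredoxin differed in sign. Me1, cytosolic malic enzyme, had 1001, 1155 and 1349 normalized counts in shBrca2 and 973, 839 and 840 in shControl (log2 fold change 0.40 ± 0.16 SE, DESeq2 adjusted p = 0.310). Pgd, an enzyme of the pentose phosphate pathway, had 774, 734 and 606 in shBrca2 and 931, 919 and 874 in shControl (log2 fold change -0.37 ± 0.15 SE, DESeq2 adjusted p = 0.359). The groups did not overlap for either gene. Slc7a11, the cystine transporter that feeds glutathione synthesis and a known NRF2 target, had 101, 56.7 and 70.5 in shBrca2 and 106, 66.3 and 57.4 in shControl. The groups overlapped, and the log2 difference was -0.02 ± 0.31 SE.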
